A study of Mus musculus with 4 samples.

Results

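The hormones and growth factors that brown adipose tissue (BAT) releases were followed through 10 genes, of 20145 named genes on the array, in mice in which an eIF2α kinase was switched on in fat by a drug. They were the stress hormones *Gdf15* and *Fgf21*, the brown fat signals (batokines) *Nrg4*, *Bmp8b* and *Vegfa*, the general fat hormones (adipokines) *Adipoq*, *Retn*, *Rbp4* and *Cfd*, and the cytokine *Il6*, and each was taken as every probe whose transcript maps to it. The 10 genes had 12 probes, of which 11 probes of 9 genes passed the filter for dim probes. *Il6* was not well above background on any of the 4 arrays.

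All 4 mice were male and transgenic (Tg) and carried Fv2E-PERK, the eIF2α kinase domain of PERK fused to an artificial dimerization domain, under the mouse aP2 (*Fabp4*) promoter. AP20187 (AP), the synthetic molecule that dimerizes the fusion protein, was injected intraperitoneally into the AP group at 1 ng/g per the labels, while a legend of the study gives 0.05 mg/kg. The control group was Tg mice given the vehicle of ethanol, PEG-400 and Tween-20 in water, so that controls had the transgene too and lacked only AP. BAT was collected 12 h after the injection, and 2 mice per group, from a line made in the C57BL/6N strain per the methods and 8 weeks of age per a legend of the study, were each measured on 1 single-colour Agilent array. The aP2 promoter is also active in monocytes and macrophages, and no array of mice without the transgene was used here. All 12 brown adipocyte markers, *Ucp1*, *Cidea* and *Prdm16* among them, were well above background on all 4 arrays, so that they did not go against the label BAT. The list also holds the general adipocyte genes *Plin1* and *Fabp4*. Detection alone does not settle the tissue, since 11 of 12 skeletal muscle markers were above background on all 4 arrays too.

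Phosphorylated eIF2α lowers general protein synthesis and lets selected mRNAs such as *Atf4* be translated, and ATF4 with its partners then turns on amino acid and stress genes. This is the integrated stress response (ISR). GDF15, a distant member of the TGF-β family that signals in the hindbrain through GFRAL and RET, and FGF21, an endocrine fibroblast growth factor that needs β-Klotho (KLB) beside an FGF receptor, are both known as hormones whose genes respond to ATF4, and both can be made by brown fat under mitochondrial or cold stress. Brown fat also secretes the usual adipokines, of which adiponectin and adipsin are among the most abundant products of any adipocyte.

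The starts of the genes for both stress hormones are shown because ATF4 with C/EBP partners is known to bind a composite element with the core TGATGNAA or TGACGNAA. The 250 bases before a transcription start are given 5′ to 3′ on the strand of the gene, from RefSeq on GRCm38.p6, with any match of either core in capitals.
Gdf15, chr8:70632457-70632706, minus strand: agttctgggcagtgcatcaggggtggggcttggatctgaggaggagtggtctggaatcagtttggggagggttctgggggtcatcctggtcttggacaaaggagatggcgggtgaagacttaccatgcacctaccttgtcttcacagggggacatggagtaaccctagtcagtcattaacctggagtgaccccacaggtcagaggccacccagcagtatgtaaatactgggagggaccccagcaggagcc
Fgf21, chr7:45615491-45615740, minus strand: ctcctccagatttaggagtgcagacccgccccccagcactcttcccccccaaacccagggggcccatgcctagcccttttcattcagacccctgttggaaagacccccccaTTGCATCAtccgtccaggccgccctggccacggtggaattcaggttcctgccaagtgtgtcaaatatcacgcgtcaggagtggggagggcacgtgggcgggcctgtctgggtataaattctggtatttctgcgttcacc
The *Fgf21* window held TTGCATCA, the TGATGNAA core read on the opposite strand, beginning 139 bases before the start site. The *Gdf15* window held neither core, and nor did the window of a second *Gdf15* start that RefSeq lists. In embryonic fibroblasts the study found ATF4 and DDIT3 (CHOP) at a site in an intron of *Gdf15* but not at an earlier reported promoter site. Its clones without the intron site no longer induced *Gdf15* after an ISR inducer. The study also detected ATF4 at an earlier reported site in the *Fgf21* promoter, and whether that is the match above was not checked. The intron site of *Gdf15* was not looked for here. All 10 genes matched the promoter table, by 13 windows from 250 bases before to 50 bases after a start, and the only other match was TGATGAAA in 1 of the *Rbp4* windows, 76 bases before its start. Over all 32851 promoter windows of that length, searched on both strands, 3.97% held TGATGNAA and 1.59% held TGACGNAA. A match is a description of letters and not a bound site, and its absence says only that these letters are not in this window.

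Each value is a log2 processed signal from which the 75th percentile of its own array was taken off, so that a difference of 1 is a doubling and 0 is the level that 75% of spots lie below. A level is comparable between mice for 1 gene but not between genes, since probes differ in brightness. No probe of the 24975 tested passed an adjusted p of 0.05 in limma (0%, smallest adjusted p 0.80), while 1515 probes had an unadjusted p under 0.05 in the same fit. With 2 mice against 2, the exact permutation test cannot go below 0.333. All differences below are therefore values with their intervals, none of which passed the test. As a background for counts of groups that did not overlap, both AP mice lay above both vehicle mice for 20.1% of the 12788 named genes tested and below both for 17.3%, and 6.04% of these genes had an unadjusted limma p under 0.05. In bulk tissue, fewer cells of a type and less RNA per cell cannot be told apart.

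*Gdf15* was higher in the AP mice, and of the 10 factors it was the only one for which both AP mice lay above both vehicle mice. Its normalized signal was −1.89 and −0.63 in the vehicle mice and 0.13 and 2.24 in the AP mice. In background-subtracted signal units these were 32.0 and 102 against 139.7 and 559. Both AP values exceeded both vehicle values, by 0.76 between the nearest mice, but the mice also differed within each group, by 1.26 among the vehicle mice and 2.11 among the AP mice. The means were −1.26 ± 0.89 for vehicle and 1.19 ± 1.49 for AP (SD, n = 2 each). AP minus vehicle was 2.45 on the log2 scale (SE 0.84, 95% interval 0.23 to 4.67), a 5.45-fold higher level, with an unadjusted limma p of 0.037, an adjusted p of 0.80 and an exact two-sided permutation p of 0.333. Ordered from the largest rise to the largest fall, *Gdf15* stood at place 20 of the 12788 named genes. By its unadjusted limma p, which counts both directions, it stood at place 568.

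*Fgf21* had a mean difference of nearly the same size that rested on 1 mouse. Its normalized signal was −0.44 and −2.46 in the vehicle mice and −1.36 and 2.98 in the AP mice, or 87.9 and 28.8 against 49.8 and 937 in background-subtracted signal. AP replicate 1 lay between both vehicle mice, and only AP replicate 2 was high, so that the groups overlapped. AP minus vehicle was 2.26 (SE 1.60, 95% interval −1.97 to 6.50; unadjusted limma p 0.22, adjusted p 0.82, exact permutation p 0.667). Without AP replicate 2 it was 0.09, and without AP replicate 1 it was 4.43. The gap of 4.34 between the AP mice was at place 6 in size among the 12788 named genes, whose median gap was 0.27, and the gap of 2.03 between the vehicle mice was at place 323 (median 0.32). All 4 *Fgf21* values were well above background.

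**Figure D1:**
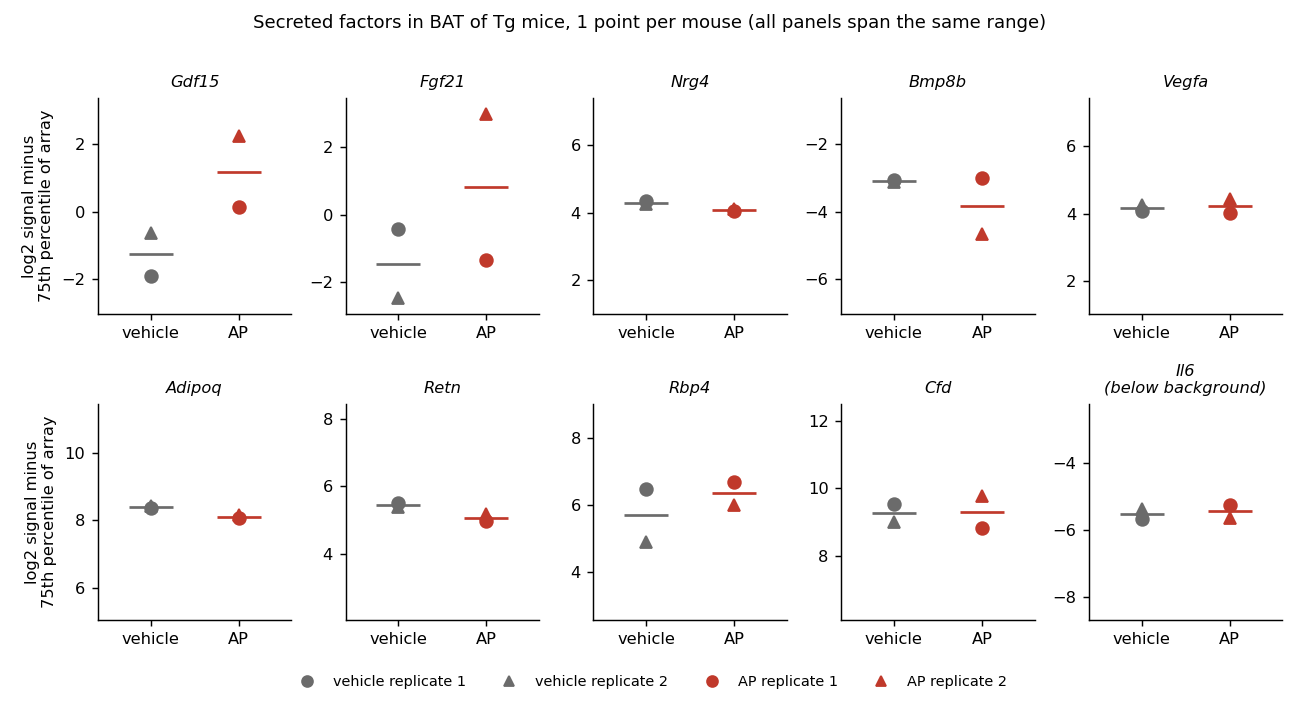
Normalized signal (log2 signal minus the 75th percentile of the array) of the 10 secreted factors in vehicle and AP Tg mice, 1 point per mouse and a line at each group mean, with all panels spanning the same range. *Gdf15* separates the groups, *Fgf21* is high in AP replicate 2 alone at 2.98, and *Nrg4*, *Adipoq* and *Retn* lie close together in all 4 mice.

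The labelled action of AP was checked on 8 ISR genes, whose values are set beside those of both hormones. *Trib3*, an ISR-induced pseudokinase, had normalized signals of 2.78 and 2.33 in the vehicle mice and 6.26 and 8.01 in the AP mice, a difference of 4.57 (SE 0.63, adjusted limma p 0.80). *Chac1*, which degrades glutathione, was 0.02 and −0.98 against 2.06 and 3.83, and *Ddit3*, the transcription factor CHOP, was 2.18 and 1.86 against 3.03 and 4.22. *Asns*, which makes asparagine, and *Sesn2*, a stress-induced inhibitor of mTORC1 signalling, also had both AP mice above both vehicle mice. In all, 5 of the 8 genes did (62.5%, against 20.1% of named genes) and none had both below (0%, against 17.3%). The median difference was 1.12 against 0.01 over all named genes. This list was chosen with these data known. *Atf4*, *Ppp1r15a* (GADD34, which directs eIF2α dephosphorylation) and *Atf3* overlapped between the groups. *Atf3* was the 1 gene of the 8 that was lower on average in the AP mice. It read 0.11 and −0.15 in the vehicle mice and −1.17 and −0.11 in the AP mice, a difference of −0.62.

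AP replicate 2 had the highest value for 7 of these 8 genes, for *Gdf15* and for *Fgf21*. AP replicate 1 was 1.39 above the vehicle mean for *Gdf15* and 3.70 above it for *Trib3*, but 0.09 above it for *Fgf21*. *Atf4* and *Ppp1r15a* ranked the mice as *Fgf21* did, AP replicate 2 first, then vehicle replicate 1, AP replicate 1 and vehicle replicate 2, and 5.03% of named genes had that order. For *Atf4* the values were 7.49 and 6.12 in the vehicle mice and 7.26 and 8.23 in the AP mice, and its second probe had the same order. *Gdf15* instead ranked vehicle replicate 2 above vehicle replicate 1, an order shared by 2.51% of named genes.

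**Figure D2:**
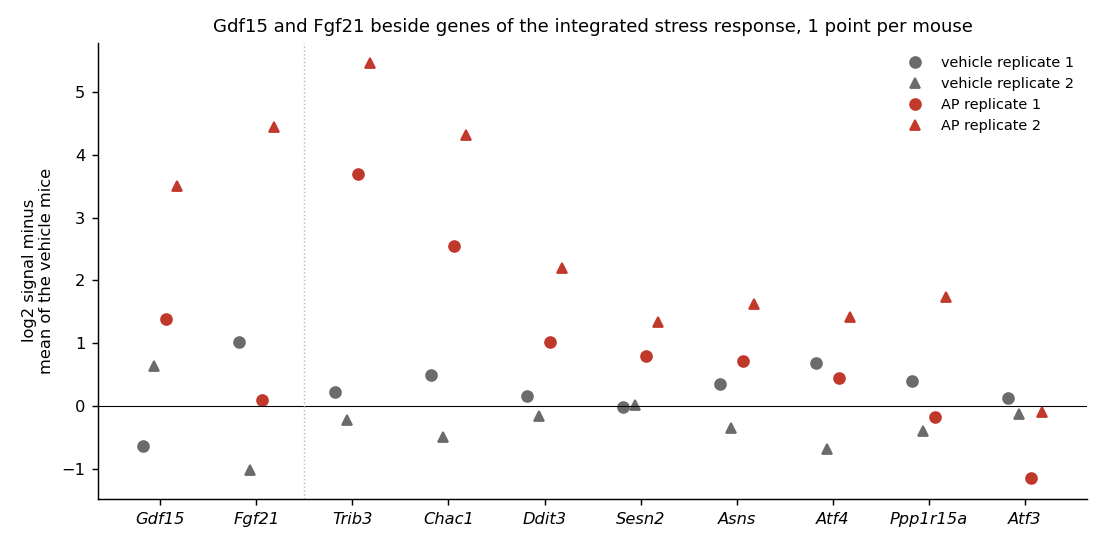
Log2 signal minus the mean of the vehicle mice for *Gdf15*, *Fgf21* and 8 genes of the ISR, 1 point per mouse. AP replicate 2 is highest for all but *Atf3*, and AP replicate 1 is 1.39 above the vehicle mean for *Gdf15* but 0.09 above it for *Fgf21*.

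The genes whose 4-mouse profile lay nearest to each hormone were found by the Euclidean distance between values minus the vehicle mean, over the 12137 other named genes that cleared background on every array. For *Gdf15* these were *Cth* (cystathionine γ-lyase, which makes cysteine) at a distance of 0.64, *F3* (tissue factor, the starter of coagulation) at 0.72, *Gadd45a* (a growth arrest and DNA damage gene) at 0.76, *Mthfd2* (mitochondrial one-carbon metabolism) at 1.05 and *Slc6a9* (a glycine transporter) at 1.33, where the median gene was at 3.90. Their AP minus vehicle differences ran from 1.93 for *Mthfd2* to 2.88 for *Slc6a9*. *F3*, for one, was 1.93 and 3.13 in the vehicle mice and 3.72 and 5.34 in the AP mice. For *Fgf21* the nearest were *Lor* (loricrin, a skin barrier protein) at 1.13, *Dhrs9* (a retinol dehydrogenase) at 1.78, *Dusp4* (a MAP kinase phosphatase) at 1.99, *Fjx1* at 2.05 and *Mthfd2* at 2.12, with a median of 4.64. *Gdf15* and *Fgf21* were 2.82 apart, farther than any of these, and *Mthfd2* was on both lists. With 4 arrays this is a likeness of values only.

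The batokines gave no difference of that size. *Nrg4*, a neuregulin that acts through ErbB3 and ErbB4, had normalized signals of 4.34 and 4.25 in the vehicle mice and 4.06 and 4.11 in the AP mice on its brighter probe, with both AP mice below. The difference was −0.21 (SE 0.20, 95% interval −0.74 to 0.32; adjusted limma p 0.84). Its dimmer probe read 3.51 and 4.01 against 3.86 and 3.78, with the groups overlapping and a difference of 0.06, so the probes did not give the same direction. The interval of the brighter probe leaves out a doubling and a halving of *Nrg4*.

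*Bmp8b*, a bone morphogenetic protein that raises the response of brown fat to noradrenaline, was dim. Its values were −3.05 and −3.12 in the vehicle mice and −2.99 and −4.67 in the AP mice, and the last of these, AP replicate 2, was not well above background. AP minus vehicle was −0.74 (SE 0.59, 95% interval −2.31 to 0.83; adjusted limma p 0.83), and it was 0.10 without AP replicate 2 and −0.013 with all mice under another background correction (normexp). The near copy *Bmp8a* was −2.27 and −2.64 against −2.84 and −2.12, and probes of such a pair may share signal. *Vegfa*, the main angiogenic factor of brown fat, was 4.07 and 4.27 against 4.03 and 4.43 on its brighter probe, a difference of 0.06 (SE 0.25, 95% interval −0.59 to 0.71). Its other probe gave 2.55 and 3.04 against 2.73 and 3.14, a difference of 0.14, and the groups overlapped on both.

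The adipokines separated into a pair with tight values and a pair with wide ones. *Adipoq*, adiponectin, which raises insulin sensitivity, was 8.37 and 8.44 in the vehicle mice and 8.06 and 8.16 in the AP mice, and *Retn*, resistin, was 5.50 and 5.40 against 4.98 and 5.16. Both AP mice lay below both vehicle mice for each. The differences were −0.30 for *Adipoq* (SE 0.20, 95% interval −0.83 to 0.24) and −0.38 for *Retn* (SE 0.21, 95% interval −0.93 to 0.18), or 0.814-fold and 0.770-fold, with adjusted limma p-values of 0.81 and 0.80. Both stayed negative without any 1 of the mice, from −0.35 to −0.25 for *Adipoq* and from −0.47 to −0.28 for *Retn*.

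*Rbp4*, the plasma carrier of retinol, was 6.49 and 4.90 in the vehicle mice and 6.69 and 6.02 in the AP mice, with vehicle replicate 2 low and the groups overlapping. Its difference was 0.66 (SE 0.60, 95% interval −0.94 to 2.26), and −0.14 without vehicle replicate 2. *Cfd*, adipsin (complement factor D), which starts the alternative complement pathway, was 9.55 and 9.01 against 8.81 and 9.79, with the AP mice on either side of both vehicle mice and a difference of 0.02 (SE 0.42, 95% interval −1.09 to 1.13). *Il6* read −5.68, −5.37, −5.26 and −5.64 over the 4 mice with no value well above background, so it was not tested and has no fold.

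Set against each other, the stress hormones and the other secreted proteins differed in the size of the difference. The mean of *Gdf15* and *Fgf21* minus its vehicle mean was 0.19 and −0.19 in the vehicle mice and 0.74 and 3.97 in the AP mice. Opposite gaps cancel in the vehicle values, which understate the spread. Vehicle replicate 2 minus vehicle replicate 1 was 1.26 for *Gdf15* and −2.03 for *Fgf21*. The 0.74 of AP replicate 1 joins 1.39 for *Gdf15* and 0.09 for *Fgf21*. The median of the 7 other measured factors was 0.04 and −0.04 in the vehicle mice and −0.24 and −0.19 in the AP mice. AP minus vehicle ran from −0.74 for *Bmp8b*, which rests on the AP value not well above background, to 0.66 for *Rbp4* among the 7, of which 3 were higher and 4 lower, while both hormones exceeded 2. The mean of the hormones minus the median of the others was 2.57, and 0.98 without AP replicate 2 and 4.15 without AP replicate 1. Over the 9 genes tested, 1 had both AP mice above both vehicle mice (11.1%, against 20.1% of named genes), 3 had both below (33.3%, against 17.3%) and 5 overlapped. The members were chosen with such results known, so no test of the groups against each other was made.

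**Figure D3:**
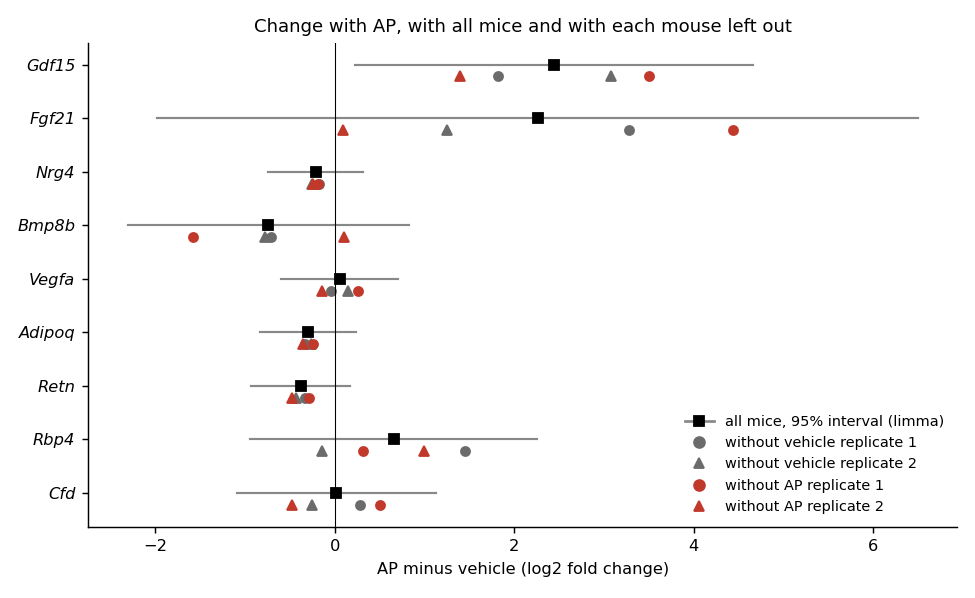
AP minus vehicle (log2 fold change) of the 9 secreted factors tested, with all mice (square, with its 95% limma interval as a line) and with each mouse left out in turn (symbols below the line). The interval of *Gdf15* lies above 0, from 0.23 to 4.67, before adjustment over all probes, the *Fgf21* estimate is 0.09 without AP replicate 2, and those of *Vegfa* and *Cfd* fall on both sides of 0.

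Receptors and co-receptors of these factors were measured in the same tissue. Of 25 listed, 19 passed the filter. For 8 of the 19 both AP mice lay above both vehicle mice (42.1%, against 20.1% of named genes), for 1 both lay below (5.26%, against 17.3%), and the median difference was 0.08. The largest was *Il6ra*, the ligand-binding chain of the IL-6 receptor, with 1.37 and 2.0 in the vehicle mice and 3.25 and 3.13 in the AP mice, a difference of 1.50 (SE 0.29, 95% interval 0.73 to 2.27; unadjusted limma p 0.0047, adjusted p 0.80). The AP mice lay close together for *Il6ra*, unlike for either hormone. *Il6st*, the signalling chain gp130, was 2.53 and 2.52 against 3.04 and 2.72.

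Of the FGF21 receptor complex, *Klb* (β-Klotho) was 2.45 and 2.41 in the vehicle mice and 2.66 and 3.24 in the AP mice, and *Fgfr1* was 3.88 and 4.14 against 4.57 and 4.25, differences of 0.52 (SE 0.27) and 0.40 (SE 0.24). The 2 other probes of *Fgfr1* also had both AP mice above both vehicle mice. *Acvr1c* (ALK7), a receptor for activins and GDF3 found in adipocytes, was 3.33 and 3.32 against 3.60 and 3.99, and its second probe also separated the groups. *Acvr1*, *Acvr2a* and *Flt1* made up the 8, with differences of 0.29, 0.14 and 0.08. The 1 gene with both AP mice below was *C3ar1*, the receptor of the complement fragment C3a, at −2.96 and −1.33 against −2.97 and −3.19. *Gfral* and *Ret*, the receptor of GDF15, and *Erbb3* and *Erbb4*, those of NRG4, did not pass the filter, nor did *Stra6* and *Bmpr1b*.

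**Figure D4:**
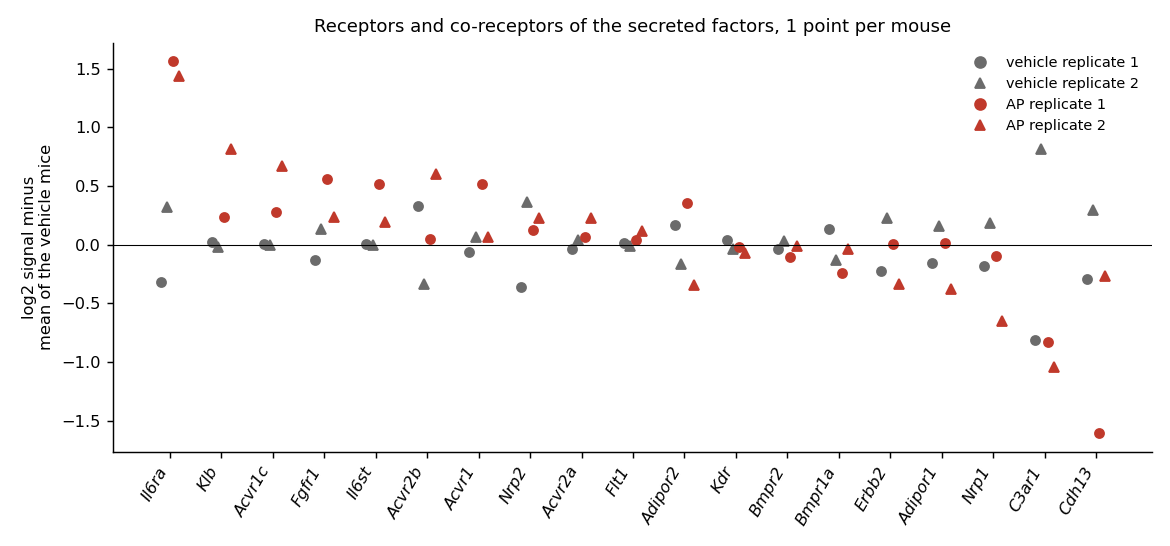
Log2 signal minus the mean of the vehicle mice for the 19 receptors and co-receptors that passed the filter, ordered by AP minus vehicle, 1 point per mouse. *Il6ra* stands apart with both AP mice near 1.50 above the vehicle mean, and *C3ar1* is high in vehicle replicate 2 alone.

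The other ligands of the families that the hormones belong to had no common difference of that size. Of 31 other TGF-β family ligands 19 passed the filter. For 1 both AP mice lay above (5.26%, against 20.1% of named genes), *Inhbe* (inhibin βE, −2.01 and −2.40 against −1.83 and −1.63). For 2 both lay below (10.5%, against 17.3%), of which *Gdf5* was the larger (1.00 and 1.45 against 0.80 and 0.45). The median difference was −0.05, which turned positive without vehicle replicate 2 or AP replicate 1 (0.0012 and 0.16). Of 21 other FGF ligands 8 passed. None had both AP mice above and 2 had both below (25%, against 17.3% of named genes), *Fgf1* and *Fgf23*, at −0.92 and −0.96. The other probe of each was too dim to pass the filter. The *Fgf1* probe lay at a Euclidean distance of 0.16 from the *Fgf23* profile. It was among 77 probes within 0.3 of that profile, many of them for genes outside the FGF family. The 2 falls are therefore not taken as a trait of FGF ligands, and the origin of the shared profile was not tested. The median over the 8 was −0.22. Of 10 EGF and neuregulin ligands 4 passed, all with overlapping groups.

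All 4 VEGF family ligands beside *Vegfa* had both AP mice below both vehicle mice, where 17.3% of named genes did. *Vegfd*, a lymphatic growth factor, was 0.37 and 1.05 against −0.51 and 0.05, a difference of −0.94 (SE 0.35, unadjusted limma p 0.048, adjusted p 0.80). *Pgf*, *Vegfb* and *Vegfc* had differences of −0.70, −0.49 and −0.40. The median of the 4 was −0.60 and lay between −0.97 and −0.25 with each mouse left out, the smallest without vehicle replicate 2. All 4 were highest in vehicle replicate 2, and so were 4 of 7 endothelial, 8 of 10 macrophage and all 7 lymphocyte and MHC class II markers measured. Their part in the result was not tested.

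Among the relatives of the adipokines, 10 of 12 C1q and collagen-like genes passed the filter, with a median difference of −0.37. That median was −0.016 without vehicle replicate 2, −0.16 without AP replicate 2 and −0.70 without vehicle replicate 1. *C1qa*, *C1qb* and *C1qc* were highest in vehicle replicate 2, and *C1qa* and *C1qb* are also on the macrophage marker list. For 1 (*C1qtnf4*, 0.18) both AP mice lay above (10%, against 20.1% of named genes). For 2 (*C1qtnf7* the larger, −1.17) both lay below (20%, against 17.3%). In the resistin family 2 of 3 passed and both overlapped. *Retnlg*, which neutrophils express, read 0.13 in AP replicate 1 and −2.70, −3.11 and −3.63 in the other mice, and 2 of 3 neutrophil markers measured were also highest in AP replicate 1. Of 8 lipocalin family genes 6 passed, and all 6 were lower on average (median −0.50). None had both AP mice above and 1 (*Orm2*, −0.52) had both below (16.7%, against 17.3%). Of 7 genes of the alternative complement pathway, in which *Cfd* acts, 5 passed. The 1 gene with both AP mice below (20%, against 17.3%) was *Cfb*, factor B, the substrate of adipsin (1.81 and 2.11 against 1.41 and 1.21). *C3* was 8.01 and 6.20 against 8.34 and 7.67, lowest in vehicle replicate 2 as *Rbp4* was. Of 6 IL-6 family cytokines 3 passed. *Ctf1* (cardiotrophin 1) was the 1 gene with both AP mice above (33.3%, against 20.1%), by 0.25 on average.

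A wider list of 56 adipose secreted factors had probes for 54 genes and 44 that passed. Both AP mice lay above both vehicle mice for 3 of the 44 (6.82%, against 20.1%) and below for 9 (20.5%, against 17.3%), with a median of −0.14. The largest difference upward was that of *Angptl6*, a hormone-like angiopoietin relative, at 1.88 and 1.36 in the vehicle mice and 2.61 and 3.62 in the AP mice (1.50, SE 0.43, unadjusted limma p 0.020, adjusted p 0.80). It was highest in AP replicate 2, as both stress hormones were. The largest downward was that of *Lep*, leptin, at 0.04 and 1.45 against −0.63 and −0.63 (−1.38, SE 0.51, unadjusted p 0.046, adjusted p 0.80 in limma). *Lep* was highest in vehicle replicate 2, as were 3 of the 6 white adipose markers measured, *Lep* itself among the list, while *Hoxc8*, *Hoxc9*, *Tcf21* and *Wt1* were not well above background. Their part in the result was not tested.

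The mice also differed in markers of other cells. All 12 skeletal muscle markers were highest in vehicle replicate 2 and lowest in vehicle replicate 1, with log2 summed levels of 5.95 and 10.1 in the vehicle mice and 9.49 and 8.63 in the AP mice. Macrophage markers, of which *Cd163* was not well above background, summed to 5.20 and 5.75 in the vehicle mice and 4.91 and 4.86 in the AP mice. The *Itgam* probe shared the profile of the *Fgf23* probe that is described under other observations. Without *Itgam* the macrophage sums were 4.19 and 5.32 against 4.51 and 4.21, with the groups overlapping, and single macrophage genes overlapped for 9 of 10. Lymphocyte and MHC class II markers summed to 4.88 and 6.62 against 5.16 and 5.08. In AP replicate 2, the mouse with the highest *Gdf15* and *Fgf21*, no cell type list had its highest summed level, while by the median deviation over genes the brown adipocyte list was highest there (0.22, against 0.21 in vehicle replicate 1). The part of these differences in the results was not tested.

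**Figure D5:**
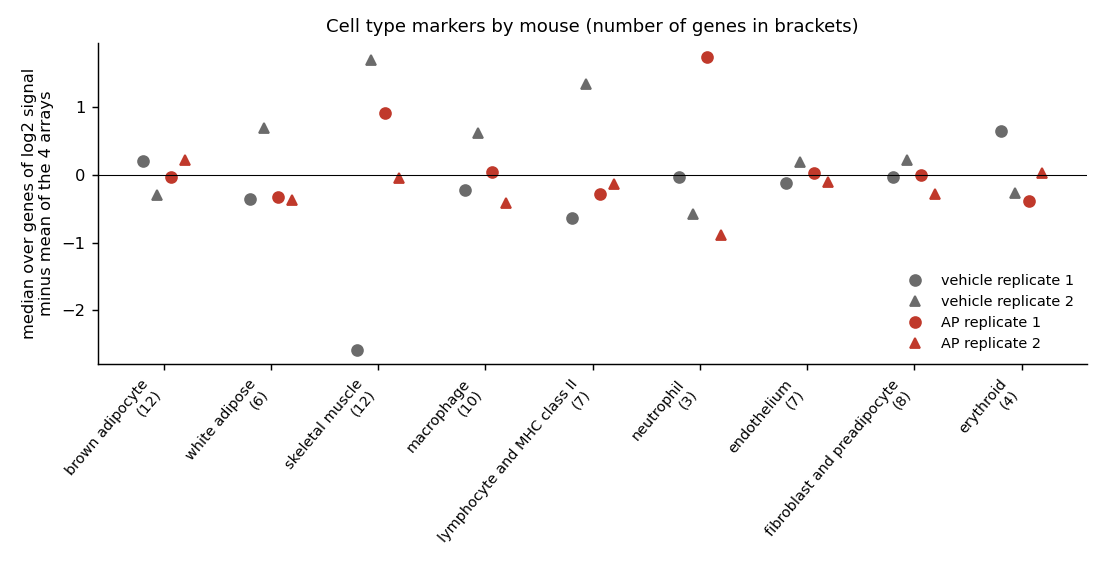
Median over the genes of each cell type list of the log2 signal minus the mean of the 4 arrays, 1 point per mouse, with the number of genes measured in brackets. Vehicle replicate 2 is high for skeletal muscle (1.70) and lymphocyte and MHC class II genes (1.34), vehicle replicate 1 is low for muscle at −2.59, and AP replicate 1 is high for neutrophil genes (1.74).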

How the data were processed

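Total RNA of BAT was labelled with Cy3 and hybridised to 4 arrays. The authors deposited each scanner output, made with Feature Extraction 10.7.1.1 per the labels, and its processed signal is an intensity after background subtraction. The authors also deposited a log2 table of these arrays, whose scale and centring are unstated. Its column medians were −0.28, −0.16, −0.44 and −0.29, and differences between its columns correlated with those of the scanner values at 0.99855 or more.

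Control spots and outlier spots were left out, the log2 processed signal was centred on the 75th percentile of each array, and spots of a probe were averaged. Probes well above background, by the scanner flag, in both mice of a group were tested with limma 3.58.1 in R 4.3.3 (lmFit, eBayes, no covariate) with Benjamini-Hochberg adjustment over 24975 probes at 0.05, and 2 of these probes lacked 1 array (none of the 12 probes of the members). From 46.4% to 49.0% of spots were well above background and none was saturated, and precision is limited by having only 4 arrays. The labels number the replicates without saying that they are separate animals, although the study's legend counts mice, so p-values measure the spread between these samples. The brightest probe stands for a gene. Names came from RefSeq for 26582 of 55681 probes, used for names only since the array design is on mm9.

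The fit was tested on simulated data. Members and gene lists were chosen with earlier results of these data known. The text names all members, the ISR genes, the largest difference in each direction of each list among genes well above background in all mice whose groups did not overlap, and the 5 nearest profiles, and *Il6st*, *Klb*, *Fgfr1*, *Acvr1c*, *Acvr1*, *Acvr2a*, *Flt1*, *Fgf1*, *Bmp8a*, *Pgf*, *Vegfb*, *Vegfc*, *C3* and *Retnlg* were added after their values were seen. Replicate numbers are shared between groups but nothing states that they pair mice, and deviations of same-numbered mice correlated at −0.13. The arrays were on 1 slide with 1 scan number, so no such block could be run. The scanner barcode gives each array a pair of position numbers on that slide without naming which is row or column. The second number was 1 for the vehicle arrays and 3 and 4 for the AP arrays, so this position and treatment cannot be told apart. Alternatives were another background correction (normexp on the median spot signal, offset 50), other centrings and filters, the authors' log2 table, a variance trend, the methods' t-test, a replicate block, averaging the probes of a gene and leaving out each mouse.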

Additional observations from a re-analysis of the deposited data

How the results depend on the processing

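No probe passed an adjusted p of 0.05 in any of the 14 alternatives that gave a count, in which 1003 (without AP replicate 1) to 2613 (no filter on low values) probes had an unadjusted p under 0.05 against 1515 in the chosen setting, and the methods' t-test gave 1478 at its threshold and 0 after Benjamini-Hochberg. *Gdf15* was higher in AP in each of the 14 alternatives run for single genes, which had the mean of all probes in place of the crossed pairs, from 1.66 (normexp) to 2.54 with all mice and from 1.39 to 3.50 with a mouse left out. *Fgf21* ran from 1.70 to 2.35 and from 0.09 to 4.43. The median of all probes shifted by −0.17 in the authors' log2 table and by 0.08 when arrays were centred on their medians, against −0.01. Under normexp *Vegfa* was −0.10, *Cfd* −0.026 and *Bmp8b* −0.013. In the authors' table, where that shift applies, *Vegfa* was −0.11, *Cfd* −0.14 and *Bmp8b* −0.90. With a mouse left out, *Vegfa* ran from −0.14 to 0.26 (−0.04 without vehicle replicate 1), *Cfd* from −0.47 to 0.51 (−0.25 without vehicle replicate 2), *Rbp4* from −0.14 to 1.45 and *Bmp8b* from −1.58 to 0.10, and the cause was not tested. The stress hormones minus the others ran from 1.78 (normexp) to 2.60 with all mice and from 0.98 to 4.15 with a mouse left out, the ends being those without AP replicate 2 and AP replicate 1. Medians of 12 gene lists with a mouse left out, an alternative added after seeing the data, kept their sign for 8 lists. The C1q and collagen-like list is counted among these, though its median was −0.016 without vehicle replicate 2. The TGF-β family ran from −0.28 to 0.16, the EGF and neuregulin ligands from −0.13 to 0.089, the resistin family from −0.58 to 1.05 and the IL-6 family from −0.10 to 0.29.

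With the replicate number as a block, 0 probes passed and 1226 had an unadjusted p under 0.05, and it changed no call. For *Gdf15* the unadjusted p was 0.0021 with the block, 0.16 without vehicle replicate 1 and 0.090 without AP replicate 2 in limma and 0.18 by the methods' t-test, and its adjusted p ran from 0.64 to 1.00. By the methods' t-test the unadjusted p was 0.039 for *Adipoq*, 0.048 for the brighter probe of *Nrg4* and 0.068 for *Retn*. The adjusted p in that t-test was 0.82 for each, and all other members tested had a higher unadjusted p. Crossing the pairs, added after seeing the data, gave 0 and 1566 probes. Leaving a group with 1 mouse assumes that this mouse varies like the other group.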

Other observations

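The brighter probe of *Fgf23*, a bone-derived hormone of phosphate balance, read 3.99 and 3.61 in the vehicle mice and 2.51 and 3.17 in the AP mice, while its other probe was not well above background on any array. Of the 24975 probes tested, 77 others had a profile within a Euclidean distance of 0.3 of it, and 39 of these carried a gene name, for 38 genes, among them *Fgf1*, *Itgam*, *Snap25*, *Oprm1* and *Mcidas*. These examples were chosen after their values were seen. Of the 38 genes, 6 had another probe that was not well above background on any of the 4 arrays. No other probe lay within that distance of the *Gdf15* profile. Distances were not scaled to the size of a difference, and among genes above background on every array the nearest to *Gdf15* was at 0.64. This count therefore cannot show whether the *Gdf15* probe is free of such a pattern.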
